A study of Sus scrofa with 12 samples.

Results

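Epithelia move salt and water with channels, pumps and enzymes that work as a set. The genes described here encode anion channels, the epithelial sodium channel, the sodium-potassium pump and its small regulators, calcium pumps, potassium channels, aquaporins, carbonic anhydrases, and channels for calcium entry and mechanical sensing. They were taken by symbol, as the gene rows whose name follows the pattern of one of these families, and 130 of the 30461 gene rows in the deposited table did so. The set was chosen with earlier results of these data known. RNA was measured by 3′ mRNA sequencing in pig (Sus scrofa) oviduct epithelium, in 12 libraries from 3 groups of 4. Fresh cells were single cells scraped from the oviduct. The other groups were spheroids, 3-dimensional clusters of cells in culture, formed either in DMEM/F12 or in a medium named only as incubation medium. The names of the DMEM/F12 libraries contain the term FBS and those of the incubation medium libraries the term Diff, and the labels explain neither. No genetic change or drug is named for any group, and the age, breed and cycle stage of the animals and the days in culture are not given in the sources used here. Nothing in the labels says that the 4 replicates of a group came from separate animals or cultures, so p-values measure the spread between these libraries, which may be technical.

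In an oviduct epithelial cell the sodium-potassium pump sets the ion gradients, potassium channels carry potassium back out and keep the membrane voltage, and chloride and bicarbonate leave through apical anion channels such as CFTR. Carbonic anhydrases make bicarbonate from carbon dioxide and water, and water follows the salt, partly through aquaporins. The fluid that results carries gametes and the early embryo, and its bicarbonate is known to activate sperm.

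Library totals ranged from 5045218 to 8603809 counts, with all fresh cell libraries below all spheroid libraries. Markers fixed for the labelled cell type were present: 5 of 7 general epithelial genes were found, and their summed level was 3730 to 4370 CPM (counts scaled to a common library size) in fresh cells, 5960 to 7390 in DMEM/F12 spheroids and 4140 to 6150 in incubation medium spheroids. Multiciliated cell markers, of which 9 of 18 were found, summed to 1240 to 1450 CPM in fresh cells, 137 to 341 in DMEM/F12 spheroids and 138 to 247 in incubation medium spheroids, and 9 of 9 were called lower in each medium. Oviduct secretory cell markers (6 of 10 found, CRISP3 at 0) summed to 19100 to 30100 CPM, 1290 to 2360 CPM and 1080 to 2130 CPM in the same order. That sum was mostly OVGP1, which averaged 22200, 400 and 471 CPM, and SLPI, while MUC1 rose (159, 545 and 474 CPM) as did CD24 (27, 293 and 50.5 CPM), so that 2 of 5 tested were called higher and 3 lower in each medium. Markers of ionocytes, the channel-rich cells of some airways and kidney tubules, were mixed. FOXI1 reached at most 3 counts in a library, and FOXI2 and BSND were at 0 in all 12. The list of 14 had 10 genes found, and its sum (167 to 179, 108 to 145 and 94.3 to 123 CPM in the 3 groups) was mostly ASCL3. The 3 tested were called lower in each medium: ASCL3 (145, 114 and 103 CPM), RARRES2 (18.8, 2.44 and 1.16 CPM) and ATP6V1C2 (8.68, 2.63 and 1.82 CPM). Stromal and smooth muscle markers (8 of 12 found) summed to 257 to 421 CPM in fresh cells, 1070 to 1220 in DMEM/F12 spheroids, mostly TAGLN, and 233 to 544 in incubation medium spheroids. Of its 7 tested genes TAGLN alone was called higher, in each medium, while 3 were called lower in DMEM/F12 and 5 in incubation medium. Those lower in both were COL3A1 (24.1, 0.574 and 0.358 CPM), COL1A2 (18.9, 2.03 and 4.42 CPM) and CNN1 (5.22, 0.867 and 0.847 CPM). For this and the other marker lists, the shares over all 14070 tested genes serve as background. In DMEM/F12 these were 35.1% for rises and 35.7% for falls, and in incubation medium 35.8% for each. The 3 of 7 lower in DMEM/F12 lay near the share for falls. Leukocyte markers (7 of 12 found) summed to 462 to 513, 423 to 483 and 505 to 603 CPM, mostly from CD79A, whose counts were shared with another feature in 91.7% of libraries, while PTPRC averaged 7.01, 2.54 and 1.21 CPM. Endothelial markers (6 of 8 found) summed to 41.9 to 57.6, 137 to 253 and 92.6 to 149 CPM, mostly from CDH5 and KDR in the spheroids, with VWF at no more than 1 count in a library. Of 4 tested, 2 were called higher and 1 lower in DMEM/F12, and 3 higher and 1 lower in incubation medium. PECAM1 was the gene called lower in each medium (15.1, 7.91 and 8.05 CPM), and TEK, not tested, averaged 1.51, 0.452 and 0.511 CPM. Erythrocyte markers (2 of 7 found) summed to at most 0.232 CPM in any library and neuronal and glial markers (5 of 8 found) to at most 1.57. Between the media, markers called lower in incubation medium included TAGLN (-1.56), COL1A1 (-2.69), CD24 (-2.54), CDH5 (-1.33) and the epithelial genes CDH1 (-1) and CLDN4 (-1.43), and KRT18 was called higher (0.76). The changes described below came with these marker changes, whose part in the results was not tested. In bulk RNA, fewer cells of a type and less RNA per cell cannot be told apart.

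Of the 130 genes, 65 passed the filter on low counts and were tested, and 40 of these reached the filter level of 1.3 CPM in every library of every group. Genes that passed only through the group in which they were high had to differ, so the counts that follow describe the tested genes and not the whole set. Against fresh cells, 49 of the 65 (75.4%) were called in DMEM/F12 spheroids, 27 higher and 22 lower, where 70.7% of all 14070 tested genes were called, 35.1% higher and 35.7% lower (edgeR quasi-likelihood test, Benjamini-Hochberg adjusted p under 0.05). In incubation medium spheroids 50 (76.9%) were called, 24 higher and 26 lower, against 71.7% of all tested genes, 35.8% higher and 35.8% lower. Between the media 19 (29.2%) were called, 7 higher in incubation medium and 12 lower, against 25% of all tested genes, 12.7% higher and 12.3% lower. These shares, from a fit without the replicate numbers, lay near the background, so the number of calls is no result about the set. With the replicate number as a block 53, 54 and 25 of the 65 were called, in the same order. The share of all tested genes called in that fit was not counted, so these numbers cannot be set against the shares above. The groups did not overlap for 42 of 65 in each comparison with fresh cells (64.6%, where 65.4% and 64.9% of all tested genes did not overlap) and for 20 of 65 between the media (30.8%, against 26.9%). The median absolute log2 fold change against fresh cells was 0.97 in DMEM/F12 and 1.14 in incubation medium, and that between the media was 0.38, beside 0.69, 0.72 and 0.25 over all tested genes. Scaling by library totals moved the share of higher calls among all genes between the media from 50.9% to 33.4%, and gave 7 higher and 16 lower in the set. Both spheroid groups are compared with the same fresh cell libraries, so their fold changes are given side by side and are not independent.

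**Figure D1:**
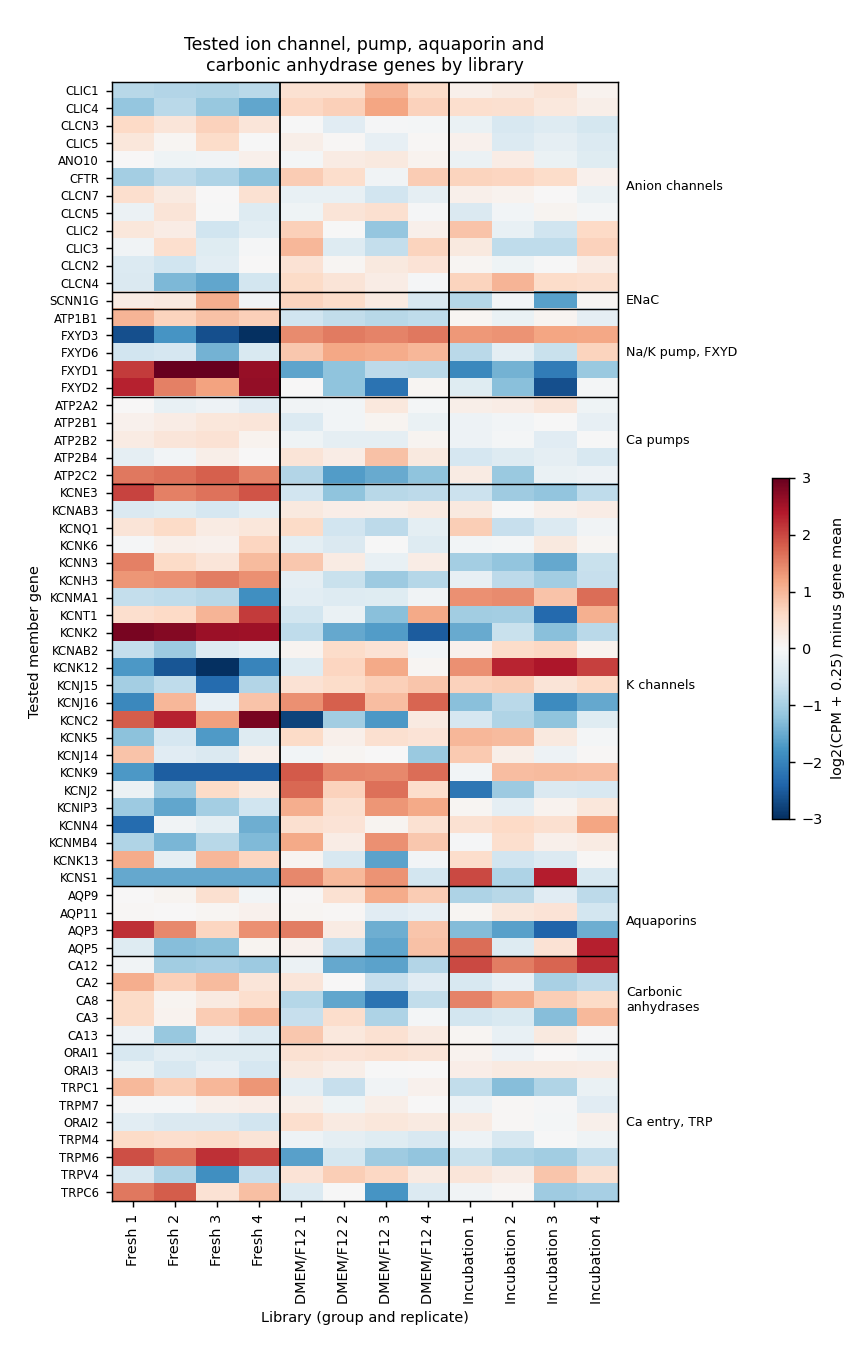
Colour shows log2(CPM + 0.25) minus the gene's mean over the 12 libraries, for 64 of the 65 tested genes (rows, by role) in each library (columns, by group and replicate; colours end at 3 in either direction). FXYD1, FXYD2, KCNK2, KCNE3 and TRPM6 are red in the 4 fresh cell libraries, FXYD3 and KCNK9 are red in the spheroids, and CA12 and KCNMA1 are red in incubation medium.

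Among the anion channels, CFTR, CLIC1 and CLIC4 rose in both spheroid groups. CFTR (ENSSSCG00025064708), the cAMP-gated apical channel for chloride and bicarbonate, was at 10.6, 12.6, 11.4 and 9.21 CPM in fresh cell replicates 1 to 4. It was at 37.5, 31.4, 20.4 and 37.5 CPM in DMEM/F12 spheroids and at 34.6, 34.2, 32.3 and 23.9 CPM in incubation medium spheroids. Every spheroid library lay above every fresh cell library, and the media overlapped. The log2 fold change against fresh cells was 1.53 (SE 0.19, adjusted p = 6.84e-06) in DMEM/F12 and 1.51 (SE 0.2, adjusted p = 7.7e-06) in incubation medium, and -0.02 (SE 0.17, adjusted p = 0.95) between the media. Counts of CFTR were not whole in 66.7% of libraries, which means that single reads were shared with another feature, and its level is uncertain to that extent. CLIC1 (ENSSSCG00025076796), of the chloride intracellular channel family, whose members exist in soluble and membrane forms, stood at 392, 376, 373 and 399 CPM in fresh cells. In DMEM/F12 it reached 957, 946, 1411 and 1016 CPM, and in incubation medium 765, 835, 906 and 748 CPM. The 3 groups did not overlap. The log2 fold changes were 1.49 (SE 0.12) and 1.08 (SE 0.12) against fresh cells, and -0.41 (SE 0.12, adjusted p = 0.0191) between the media. Without incubation medium replicate 1 or 4 the last call was lost (adjusted p = 0.0537 and 0.0516).

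CLIC4 (ENSSSCG00025018968), of the same family, rose from 54.7, 69.9, 55.5 and 41.6 CPM in fresh cells to 187, 201, 280.0 and 197 in DMEM/F12 and 173, 171, 153 and 139.7 in incubation medium. Its log2 fold changes were 1.96 and 1.52 (SE 0.16 each), with no overlap. The lower level in incubation medium than in DMEM/F12 (-0.44, adjusted p = 0.0424) depended on single libraries: the adjusted p was 0.136 without DMEM/F12 replicate 3 and above the threshold without DMEM/F12 replicate 2 or 4 or any one incubation medium library (0.0522 to 0.104), and it was 0.0719 with thinned counts. Of the CLCN genes, the endosomal exchanger CLCN3 fell, from a mean of 103 to 67.1 and 55.0 CPM (log2 fold changes -0.62 and -0.91). The lysosomal exchanger CLCN7 fell in DMEM/F12, from 25.4 to 16.3 CPM (-0.64, adjusted p = 0.000474), and was at 20.6 CPM in incubation medium, where the call (-0.30, adjusted p = 0.0476) was lost without any of 7 single libraries and under DESeq2 (adjusted p = 0.0566). With the replicate number as a block, CLCN3 was called lower (-0.29, adjusted p = 0.0134) and CLCN7 higher (0.35, adjusted p = 0.0289) in incubation medium than in DMEM/F12, which neither was without it (adjusted p = 0.067 for each). CLCN4, another endosomal exchanger, rose from 1.33 to 3.39 and 4.53 CPM (1.34 and 1.75). The plasma membrane channel CLCN2 rose in DMEM/F12 (0.67, adjusted p = 0.0106; 0.0642 with thinned counts), from 2.45 to 3.89 CPM. CLIC5, found with actin-based microvilli, was called lower only in the comparison of incubation medium with fresh cells (-0.47, adjusted p = 0.01), and was not called between the media (-0.24, adjusted p = 0.267). ANO10, CLCN5, CLIC2 and CLIC3 were called in none of the 3 comparisons, with log2 fold changes between -0.32 and 0.32. ANO10 was called lower in incubation medium than in DMEM/F12 with thinned counts (-0.37, adjusted p = 0.0486) and without incubation medium replicate 2 (-0.40, adjusted p = 0.0235). In all, 7 of 12 tested anion channel genes were called in each medium against fresh cells, 5 higher and 2 lower in DMEM/F12 and 4 higher and 3 lower in incubation medium, and 2 of 12 between the media. These shares were 58.3%, 58.3% and 16.7%, beside 70.7%, 71.7% and 25% of all tested genes.

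The epithelial sodium channel was represented by SCNN1G (ENSSSCG00025020417), its gamma subunit, which was near the detection limit. It stood at 1.57, 1.61, 2.99 and 1.18 CPM in fresh cells, 2.19, 1.98, 1.59 and 0.841 in DMEM/F12, and 0.597, 1.20, 0.246 and 1.34 in incubation medium. All 3 groups overlapped. The fall in incubation medium was called (log2 fold change -1.12, SE 0.47, adjusted p = 0.0454) but not without 5 of the 8 libraries taken singly (adjusted p = 0.0564 to 0.18) nor under DESeq2 (0.051).

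The pump and its FXYD regulators moved far, in opposite directions: FXYD3 rose, while ATP1B1, FXYD1 and FXYD2 fell. ATP1B1 (ENSSSCG00025052482), the beta subunit that brings the sodium-potassium pump to the membrane, was at 639, 505, 586 and 523 CPM in fresh cells. It was at 208, 191, 177 and 186 CPM in DMEM/F12 and at 328, 274, 336 and 261 CPM in incubation medium, so the 3 groups were separate. The log2 fold changes were -1.57 (SE 0.11, adjusted p = 1.3e-08) and -0.91 (SE 0.1, adjusted p = 2.26e-06) against fresh cells, and 0.66 (SE 0.1, adjusted p = 0.000447) for incubation medium over DMEM/F12. FXYD proteins are small membrane proteins that bind the pump and tune it. FXYD3 (ENSSSCG00025029896) was at 21.1, 38.7, 21.1 and 8.43 CPM in fresh cells and rose in every spheroid library, to 355, 395, 373 and 398 CPM in DMEM/F12 and 329, 338, 301 and 300.1 CPM in incubation medium. This was 16.9-fold (log2 4.08, SE 0.28, adjusted p = 1.56e-08) and 14.1-fold (log2 3.82, SE 0.28, adjusted p = 2.59e-08). Fractional counts occurred in 33.3% of libraries for ATP1B1 and for FXYD3. The libraries of FXYD3 did not overlap between the media either, but the difference was not called (-0.26, adjusted p = 0.46; called with only the 2 media in the fit, adjusted p = 0.0268).

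FXYD1 (ENSSSCG00025030566), phospholemman, went the other way, from 46.8, 98.5, 91.8 and 67.0 CPM in fresh cells to 3.41, 4.53, 6.09 and 6.003 in DMEM/F12 and 2.63, 3.87, 2.34 and 4.84 in incubation medium. It was 15.2-fold lower (log2 -3.92, SE 0.26, adjusted p = 1.2e-08) and 22.3-fold lower (log2 -4.48, SE 0.28, adjusted p = 5.78e-09). FXYD2 (ENSSSCG00025007834), the pump's gamma subunit known from kidney, fell from 45.1, 25.8, 21.1 and 57.2 CPM to 9.001, 3.72, 1.72 and 9.25 in DMEM/F12 and 6.92, 3.60, 1.23 and 8.60 in incubation medium, by 2.64 (SE 0.5) and 2.87 (SE 0.51) on the log2 scale. FXYD6 (ENSSSCG00025007905) separated the media. Fresh cells held 38.3, 40.0, 21.3 and 41.4 CPM, DMEM/F12 spheroids 99.99, 127.5, 123 and 114, and incubation medium spheroids 32.6, 46.3, 35.7 and 90. FXYD6 changed by 1.72 on the log2 scale (SE 0.28, adjusted p = 7.42e-05) in DMEM/F12, 0.53 (adjusted p = 0.104) in incubation medium and -1.18 (SE 0.27, adjusted p = 0.00536) between them. Without incubation medium replicate 1 or 3 the rise over fresh cells was called (0.72 and 0.69, adjusted p = 0.0311 and 0.047). FXYD2 and FXYD6 are direct neighbours in the RefSeq gene order of the pig assembly Sscrofa11.1, and in DMEM/F12 spheroids one fell while the other rose. Of the pump's other subunits, ATP1B2 was below the filter, at no more than 4 counts in any library. SCNN1A and ANO1 had been listed for description but were not analysed here, since no tested row carried those symbols.

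**Figure D2:**
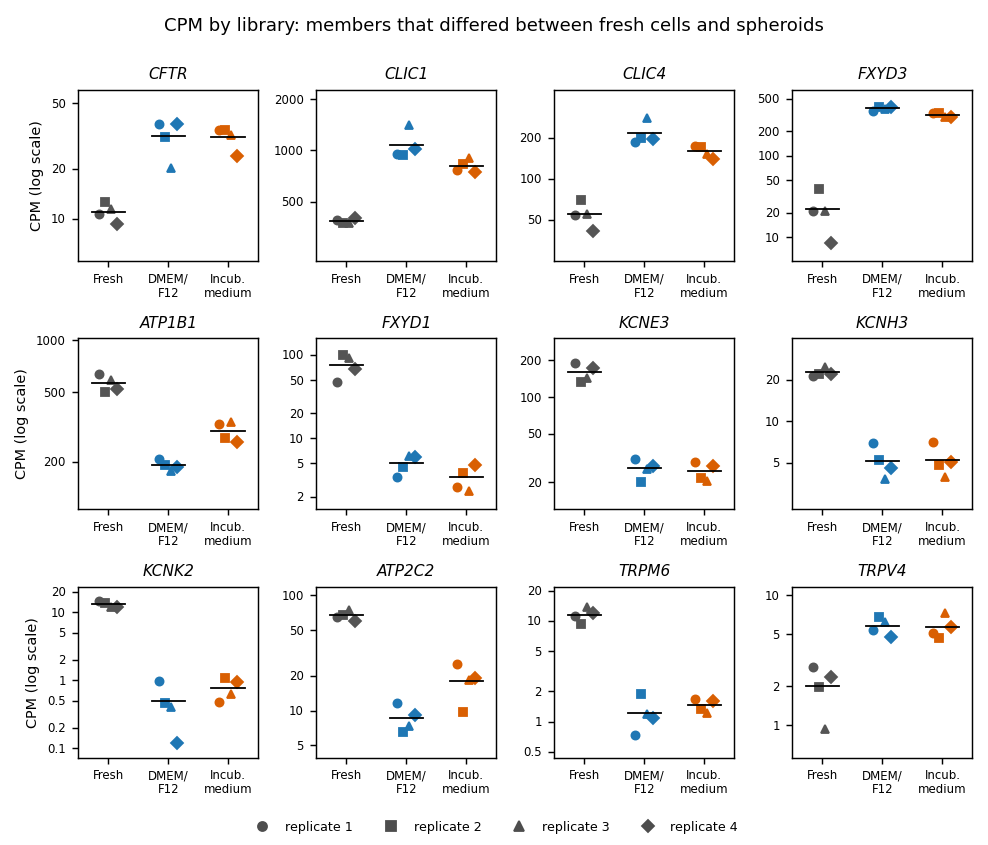
CPM on a log axis in each library, by group, with 1 symbol per replicate and a line at the group mean, for 12 genes. CFTR, CLIC1, CLIC4, FXYD3 and TRPV4 sit higher in all 8 spheroid libraries than in any fresh cell library, and ATP1B1, FXYD1, KCNE3, KCNH3, KCNK2, ATP2C2 and TRPM6 sit lower in all 8.

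Of the calcium pumps, the Golgi pump ATP2C2 moved most. ATP2C2 (ENSSSCG00025049809), which loads the secretory pathway with calcium and manganese, was at 65.3, 68.2, 74.4 and 60.6 CPM in fresh cells, 11.6, 6.51, 7.41 and 9.13 in DMEM/F12, and 25.5, 9.74, 18.6 and 19.2 in incubation medium. It fell by 2.95 (SE 0.23, adjusted p = 5.78e-08) and 1.87 (SE 0.22, adjusted p = 2.58e-06) on the log2 scale, and was 2.12-fold higher in incubation medium than in DMEM/F12 (adjusted p = 0.00449), with replicate 2 of incubation medium inside the DMEM/F12 range. ATP2B4 (ENSSSCG00025010272), a plasma membrane pump, was at 27.2, 31.2, 37.0 and 33.3 CPM in fresh cells, 43.3, 38.7, 60.3 and 40.5 in DMEM/F12, and 23.3, 25.1, 27.2 and 23.5 in incubation medium. It was above fresh cells in DMEM/F12 (log2 fold change 0.51, adjusted p = 0.00476) and lower in incubation medium than in DMEM/F12 (-0.88, SE 0.14, adjusted p = 0.000422). The fall against fresh cells in incubation medium (-0.38, adjusted p = 0.0289) was lost without any of 5 single libraries (adjusted p up to 0.0989). The plasma membrane pump ATP2B1 (ENSSSCG00025062364) was at 109.1, 115.5, 126.8 and 129 CPM in fresh cells, 75.3, 93.97, 105.6 and 86.3 in DMEM/F12 and 90.07, 94.6, 98.1 and 83.96 in incubation medium. It fell slightly in both media, with no overlap with fresh cells (-0.41 and -0.39, SE 0.1 each), as did ATP2B2, from a mean of 115 to 85.1 and 85.5 CPM. ATP2A2 (ENSSSCG00025015273), the endoplasmic reticulum pump, was at 153.5, 130.4, 138 and 120.7 CPM in fresh cells, 142.6, 144.7, 190.8 and 147.9 in DMEM/F12 and 173.5, 177.7, 195.9 and 140.8 in incubation medium. The groups overlapped. ATP2A2 was not called in DMEM/F12 (0.21, adjusted p = 0.14; 0.0412 with library totals) and was called higher in incubation medium (0.34, adjusted p = 0.0196; 0.0591 without fresh cell replicate 4 and 0.0533 without incubation medium replicate 3). Against fresh cells 4 of 5 calcium pump genes were called in DMEM/F12 and 5 of 5 in incubation medium, in each case with 1 of them higher (80% and 100%, beside 70.7% and 71.7% of all tested genes).

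Potassium channel genes were the largest family, with 24 of 63 tested. Against fresh cells 13 were called higher and 8 lower in DMEM/F12, and 11 higher and 8 lower in incubation medium, which was 87.5% and 79.2% of those tested beside 70.7% and 71.7% of all tested genes. Of those called higher, KCNK9, KCNK12, KCNS1, KCNIP3 and KCNMB4 had at most 3 counts in any fresh cell library. They passed the filter only through spheroid libraries and had to differ, so these shares are no result about the family. The falls included genes that stood well above the filter level in fresh cells. KCNE3 (ENSSSCG00025003274), an accessory subunit that holds the channel KCNQ1 open in secretory epithelia, was at 189, 133, 144 and 173 CPM in fresh cells, 31.3, 19.98, 25.8 and 27.0 in DMEM/F12 and 29.5, 21.9, 20.4 and 27.3 in incubation medium. It was 6.15-fold and 6.45-fold lower (log2 -2.62 and -2.69, SE 0.16 each, adjusted p = 4.6e-09 and 3.8e-09), with -0.07 between the media (SE 0.16). Its partner KCNQ1 was at 24.2, 27.3, 21.7 and 23.3 CPM in fresh cells, 27.6, 12.2, 10.6 and 15.0 in DMEM/F12, and 30.5, 11.2, 13.8 and 16.9 in incubation medium. Replicate 1 was the highest library of each spheroid group. KCNQ1 was not called against fresh cells (-0.56, adjusted p = 0.123, and -0.41, adjusted p = 0.251). It was called with the replicate number as a block (-0.64, adjusted p = 0.00992, and -0.49, adjusted p = 0.0373) and without replicate 1 of the spheroid group concerned (-0.92, adjusted p = 0.00926, and -0.77, adjusted p = 0.0216).

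KCNK2 (ENSSSCG00025070378), a tandem-pore background channel that opens with membrane stretch, was at 14.8, 13.8, 11.97 and 11.95 CPM in fresh cells and fell to 0.973, 0.465, 0.397 and 0.12 CPM in DMEM/F12 and 0.477, 1.07, 0.615 and 0.940 CPM in incubation medium. It was 26.0-fold lower in DMEM/F12 (SE 0.33 on the log2 scale, adjusted p = 2.01e-08) and 16.8-fold lower in incubation medium (SE 0.31, adjusted p = 4.43e-08). The spheroid levels of KCNK2 rest on few counts, so the size of these falls is uncertain. DMEM/F12 replicate 4 lay under 0.36 CPM, the level of 3 counts in that library. KCNH3 (ENSSSCG00025075441), of the ether-à-go-go family, fell from 21.4, 22.1, 24.9 and 22.2 CPM to 6.93, 5.23, 3.84 and 4.56 in DMEM/F12 and 7.04, 4.81, 3.94 and 5.11 in incubation medium (-2.13 and -2.11, SE 0.19 each). KCNC2, a Shaw-related voltage-gated channel, averaged 7.42 CPM in fresh cells and 0.662 and 0.797 in the spheroids (-3.43 and -3.19), and its fall in DMEM/F12 was -4.59 without DMEM/F12 replicate 4. The spheroid levels of KCNC2 rest on few counts too.

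Several potassium channel genes with low levels in fresh cells rose. KCNK9, a tandem-pore channel inhibited by acid, had at most 1 count in a fresh cell library, 3.57 to 4.74 CPM in DMEM/F12 and 1.07 to 2.46 CPM in incubation medium. The spheroid group means were 7.30-fold and 3.78-fold the fresh cell floor, the mean CPM of the 3 counts that a count of 0 allows per library. For KCNIP3 and KCNMB4, at or under that floor in fresh cells, the group means were 4.24-fold and 3.42-fold the floor in DMEM/F12 and 1.96-fold and 1.91-fold in incubation medium. KCNS1, a modifier subunit with no current of its own, was at 0 in all 4 fresh cell libraries and between 0.134 and 3.45 CPM in the spheroid libraries. The KCNS1 group means were 2.12-fold the floor in DMEM/F12 and 2.93-fold in incubation medium, but the lowest spheroid library lay under the floor. KCNJ15, an inward rectifier, rose from a mean of 1.603 CPM to 6.06 and 5.96 (log2 fold changes 1.9 and 1.88), and the tandem-pore channel KCNK5 from 1.20 to 3.25 and 3.76 CPM (1.43 and 1.64). KCNN4, the intermediate-conductance calcium-activated channel, was at 0.46 CPM in fresh cells and 1.34 and 1.77 in the spheroids (1.51 and 1.9; in DMEM/F12 the adjusted p was 0.0584 without fresh cell replicate 4). The cytoplasmic beta subunits KCNAB3 (ENSSSCG00025048855) and KCNAB2 rose as well. KCNAB3 went from 49.6, 51.8, 47.5 and 55.3 CPM to 82.0, 77.01, 76.4 and 81.5 in DMEM/F12 and 82.3, 66.9, 75.2 and 78.2 in incubation medium, a small shift (0.63 and 0.57) with a small spread (SE 0.08). KCNAB2 went from 2.92 to 5.41 and 5.85 CPM. KCNK6, a tandem-pore channel of endosomes and lysosomes, fell in DMEM/F12 (-0.52, adjusted p = 0.00936). KCNJ14 was called in none of the 3 comparisons (log2 fold changes -0.42, 0.11 and 0.53). KCNK13 was called lower in DMEM/F12 (-1.35, adjusted p = 0.0234), which did not hold without fresh cell replicate 1 or 3 or DMEM/F12 replicate 2 or 3, and in incubation medium with the replicate block alone among the fits of all libraries (-0.90, adjusted p = 0.0482).

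**Figure D3:**
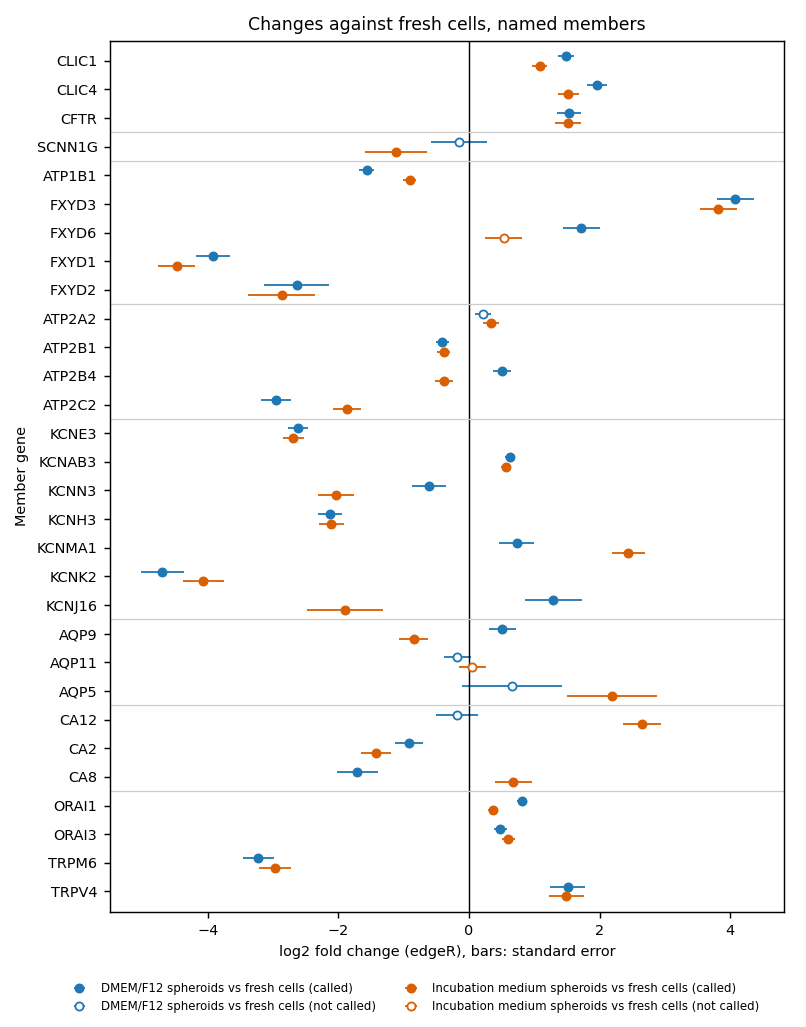
Log2 fold change against fresh cells (points) with its standard error (bars) for 30 of the genes described by library, in DMEM/F12 spheroids (blue) and incubation medium spheroids (orange). Filled points were called at an adjusted p under 0.05. KCNK12 is left out because fresh cells had 3 counts or fewer. FXYD3 lies farthest right and FXYD1 and KCNK2 farthest left, and ATP2B4, KCNJ16, AQP9 and CA8 have a filled point on each side of 0.

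Between the media 3 potassium channel genes were called higher in incubation medium and 5 lower, of 24 tested (33.3%, against 25% of all tested genes). KCNJ16 (ENSSSCG00025027171), an inward rectifier subunit that forms pH-sensitive channels with partners such as KCNJ15, was at 0.348, 4.30, 1.68 and 3.92 CPM in fresh cells, 5.72, 7.67, 4.10 and 7.44 in DMEM/F12 and 0.716, 1.07, 0.369 and 0.537 in incubation medium. Fresh cells spread over both ranges, and the media did not overlap. The difference between the media was 9.13-fold (log2 -3.19, SE 0.51, adjusted p = 0.000472). Against fresh cells KCNJ16 was called higher in DMEM/F12 (1.29, SE 0.44, adjusted p = 0.0172; 1.14 and 0.0524 without fresh cell replicate 3) and lower in incubation medium (-1.9, SE 0.58, adjusted p = 0.00865). Its counts were not whole in 41.7% of libraries. KCNJ2, the classical inward rectifier, lies next to KCNJ16 in the RefSeq order of Sscrofa11.1 with 1 protein-coding gene between them. It was at 1.218, 0.538, 2.24 and 1.76 CPM in fresh cells, 5.23, 2.44, 5.03 and 2.16 in DMEM/F12 and 0.119, 0.534, 0.985 and 0.940 in incubation medium, and it too was lower in incubation medium than in DMEM/F12, with no overlap (log2 -2.50, SE 0.49, adjusted p = 0.00206). Its rise over fresh cells in DMEM/F12 (1.36, adjusted p = 0.0169) was lost without fresh cell replicate 2 (0.0554) or DMEM/F12 replicate 1 (0.0503), and in incubation medium it was not called (-1.14, adjusted p = 0.0913) except without fresh cell replicate 2 (-1.41, adjusted p = 0.0414).

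Among calcium-activated potassium channels, KCNMA1 was higher and KCNN3 lower in incubation medium than in DMEM/F12, while KCNN4 (0.38, adjusted p = 0.517) and the beta subunit KCNMB4 (-0.82, adjusted p = 0.071; 0.0432 with library totals and 0.0277 without DMEM/F12 replicate 2) were not called. KCNMA1 (ENSSSCG00025070700), the pore of the large-conductance channel, was at 2.44, 2.33, 2.24 and 0.980 CPM in fresh cells, 3.28, 3.14, 3.18 and 3.84 in DMEM/F12 and 11.1, 11.5, 7.75 and 13.8 in incubation medium. It was 5.44-fold above fresh cells (log2 2.44, SE 0.25, adjusted p = 8.17e-07) and 3.27-fold above DMEM/F12 (log2 1.71, SE 0.22, adjusted p = 0.0001) in incubation medium. The smaller rise in DMEM/F12 (0.73, adjusted p = 0.0273) was lost without fresh cell replicate 4 (0.0811) or DMEM/F12 replicate 4 (0.0592) and with thinned counts (0.187). KCNN3 (ENSSSCG00025029037), a small-conductance channel, was at 38.6, 20.1, 17.2 and 26.3 CPM in fresh cells, 23.6, 15.8, 11.4 and 15.6 in DMEM/F12 and 6.44, 5.74, 4.43 and 8.33 in incubation medium. It was 4.10-fold below fresh cells (log2 -2.04, SE 0.28, adjusted p = 1.6e-05) and 2.67-fold below DMEM/F12 (log2 -1.42, SE 0.28, adjusted p = 0.00229) in incubation medium. Its fall in DMEM/F12 (-0.62, adjusted p = 0.0438) was lost without any of 5 single libraries, fresh cell replicates 1 and 4 and DMEM/F12 replicates 2, 3 and 4 (adjusted p up to 0.213), and with library totals, no filter, thinned counts or only the groups compared (0.055 to 0.0766). KCNK12 (ENSSSCG00025051138), a tandem-pore subunit, had no more than 3 counts in any fresh cell library (0.522, 0.179, 0 and 0.392 CPM), and was at 1.70, 3.72, 5.29 and 2.40 CPM in DMEM/F12 and at 6.32, 12.01, 13.4 and 10.2 CPM in incubation medium. Its spheroid group means were 5.94-fold and 19.0-fold the fresh cell floor of 3 counts. KCNK12 was 3.20-fold higher in incubation medium than in DMEM/F12 (log2 1.68, SE 0.34, adjusted p = 0.00229). KCNIP3 and KCNK9 were lower in incubation medium than in DMEM/F12 (-1.10, adjusted p = 0.0125, and -0.95, adjusted p = 0.0262). The KCNK9 call was lost with thinned counts (adjusted p = 0.0755) and without DMEM/F12 replicate 1 (0.0745) or 4 (0.0618) or incubation medium replicate 1 (0.0705).

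Of the 5 tested carbonic anhydrases, CA12 and CA8 were called between the media, both higher in incubation medium (40% of them, against 25% of all tested genes), and CA2, CA13 and CA3 were not (adjusted p = 0.134, 0.143 and 0.922). CA12 (ENSSSCG00025076894), a membrane-anchored enzyme with its active site outside the cell, was at 19.5, 10.04, 10.47 and 9.80 CPM in fresh cells, 18.5, 7.09, 6.75 and 11.4 in DMEM/F12 and 83.5, 61.5, 70.8 and 98.6 in incubation medium. Fresh cells and DMEM/F12 overlapped, at no more than 19.5 CPM, and no incubation medium library was below 61.5 CPM. CA12 was 7.17-fold higher in incubation medium than in DMEM/F12 (log2 2.84, SE 0.29, adjusted p = 1.44e-05) and 6.27-fold higher than in fresh cells (log2 2.65, SE 0.29, adjusted p = 1.66e-06), and DMEM/F12 differed from fresh cells by -0.19 (SE 0.32, adjusted p = 0.602). CA8 (ENSSSCG00025048908), a relative without enzyme activity that binds the inositol trisphosphate receptor, was at 6.96, 4.84, 5.61 and 6.66 CPM in fresh cells, 2.43, 1.39, 0.794 and 2.64 in DMEM/F12 and 13.4, 10.4, 7.88 and 6.99 in incubation medium. The 3 groups were separate. CA8 was 5.26-fold higher in incubation medium than in DMEM/F12 (log2 2.39, SE 0.31, adjusted p = 8.75e-05) and fell in DMEM/F12 (-1.71, adjusted p = 0.000274). Its rise over fresh cells in incubation medium (0.68, adjusted p = 0.0385) was lost without fresh cell replicate 2, 3 or 4 or incubation medium replicate 1 or 2 (adjusted p 0.0518 to 0.128). CA2 (ENSSSCG00025052445), the fast cytosolic enzyme, fell in both media, from 28.02, 21.7, 25.6 and 16.9 CPM to 16.9, 13.2, 8.07 and 10.3 in DMEM/F12 and 9.31, 10.95, 6.52 and 7.52 in incubation medium (-0.92, SE 0.22, and -1.43, SE 0.23). With the replicate block it was also lower in incubation medium than in DMEM/F12 (-0.50, adjusted p = 0.0437, against 0.134 without the block). The cytosolic CA13 rose in DMEM/F12 (0.97, adjusted p = 0.00222) from 3.08 to 6.03 CPM; in incubation medium it was at 4.37 CPM (0.51, adjusted p = 0.0772, and 0.042 with the replicate block). CA3, known from muscle, was not called against fresh cells (-0.84, adjusted p = 0.106, and -0.76, adjusted p = 0.14). It was called in DMEM/F12 with only the groups compared in the fit (adjusted p = 0.0395), with the replicate block in both media (-0.87, adjusted p = 0.0376, and -0.86, adjusted p = 0.0402) and without DMEM/F12 replicate 2 (-1.19, adjusted p = 0.0383) or incubation medium replicate 4 (-1.42, adjusted p = 0.00392).

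Aquaporins were called in 1 of 4 tests in DMEM/F12 and 3 of 4 in incubation medium against fresh cells, and in 2 of 4 between the media, both lower in incubation medium (25%, 75% and 50%, beside 70.7%, 71.7% and 25% of all tested genes). AQP9 (ENSSSCG00025024747), a channel for water and small neutral solutes, was at 18.6, 19.6, 26.2 and 17.6 CPM in fresh cells, 19.1, 25.8, 40.5 and 31.9 in DMEM/F12 and 9.66, 10.4, 14.7 and 10.6 in incubation medium. All incubation medium libraries lay below all others. AQP9 was 2.58-fold lower in incubation medium than in DMEM/F12 (log2 -1.37, SE 0.21, adjusted p = 0.000418) and 1.81-fold lower than in fresh cells (adjusted p = 0.00324). Its rise in DMEM/F12 (0.51, adjusted p = 0.0398) was lost without fresh cell replicate 1, 2 or 4 or DMEM/F12 replicate 3 or 4 (adjusted p up to 0.138), with thinned counts (0.14) and with a mean of at least 10 counts (0.0523). AQP3, a basolateral channel for water and glycerol, was at 14.6, 8.61, 4.86 and 8.23 CPM in fresh cells, 9.25, 3.60, 0.926 and 5.52 in DMEM/F12 and 1.07, 0.801, 0.369 and 0.940 in incubation medium. It was 11.2-fold below fresh cells (log2 -3.49, SE 0.59, adjusted p = 9.4e-05) and 5.99-fold below DMEM/F12 (log2 -2.58, SE 0.6, adjusted p = 0.0061) in incubation medium. AQP3 rests on few counts there, with replicate 3 at the level of 3 counts. In DMEM/F12 it was not called (-0.91, adjusted p = 0.0942), but it was with the replicate block (-0.99, adjusted p = 0.00103) and without DMEM/F12 replicate 1 (-1.41, adjusted p = 0.0143). AQP5 (ENSSSCG00025072976), the apical water channel of glands, was at 1.218, 0.538, 0.561 and 1.76 CPM in fresh cells, 1.83, 0.929, 0.397 and 3.24 in DMEM/F12 and 5.85, 1.20, 2.34 and 9.40 in incubation medium. The groups overlapped, and the rise over fresh cells in incubation medium was called (log2 2.19, SE 0.69, adjusted p = 0.0111). Between the media AQP5 was not called (1.53, adjusted p = 0.0793), but it was with the replicate block (1.52, adjusted p = 0.000439) and without DMEM/F12 replicate 4 (2.13, adjusted p = 0.0382) or incubation medium replicate 2 (1.85, adjusted p = 0.0316). AQP11 (ENSSSCG00025075741), an intracellular aquaporin, was at 6.27, 6.098, 6.36 and 6.66 CPM in fresh cells, 6.33, 6.27, 4.76 and 5.04 in DMEM/F12 and 6.32, 7.74, 8.12 and 4.03 in incubation medium. The groups overlapped, and AQP11 was called in no comparison. Its counts were not whole in 50% of libraries.

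**Figure D4:**
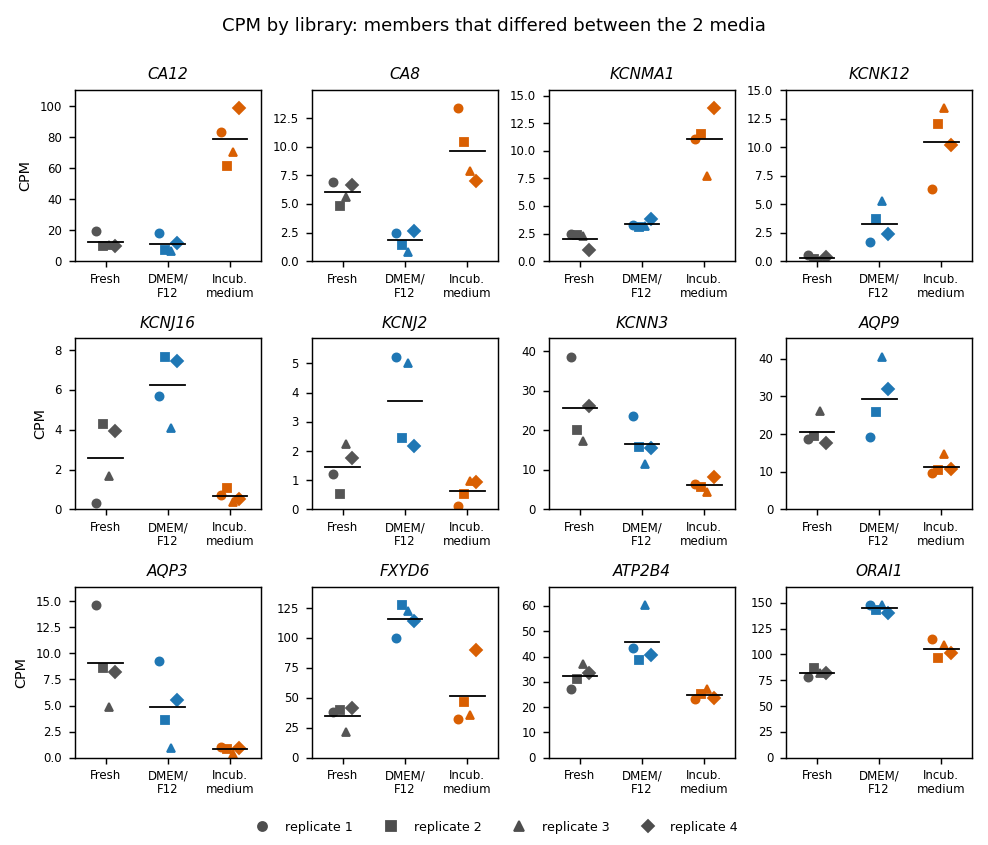
CPM in each library on a linear axis from 0, by group, with 1 symbol per replicate and a line at the group mean, for 12 genes called between the media. CA12, CA8, KCNMA1 and KCNK12 are higher in all 4 incubation medium libraries than in all 4 DMEM/F12 libraries, and KCNJ16, KCNJ2, KCNN3, AQP9, FXYD6, ATP2B4 and ORAI1 are lower in all 4. For AQP3, DMEM/F12 replicate 3 lies among the incubation medium libraries.

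Genes for calcium entry split by type: the store-operated pores rose and most of the called TRP channels fell. ORAI1 (ENSSSCG00025013755), the pore that opens when the endoplasmic reticulum is depleted of calcium, was at 77.8, 87.2, 82.3 and 81.9 CPM in fresh cells, 148, 143, 148 and 140.5 in DMEM/F12 and 115, 96.9, 109 and 101 in incubation medium. Its 3 groups were separate (log2 0.81 and 0.36 against fresh cells and -0.45 between the media, SE 0.07 each, adjusted p = 2.61e-07, 0.00058 and 0.000528). ORAI3 (ENSSSCG00025048981), another pore of this family, was at 34.8, 28.5, 34.03 and 28.2 CPM in fresh cells, 49.4, 45.1, 39.8 and 40.7 in DMEM/F12 and 45.8, 48.2, 48.5 and 47.8 in incubation medium. All spheroid libraries lay above all fresh cell libraries (0.48 and 0.60, SE 0.1 each). ORAI2 rose from 15.8 to 27.4 and 23.0 CPM (0.80 and 0.54), and with the replicate block it was lower in incubation medium than in DMEM/F12 (-0.25, adjusted p = 0.0432, against 0.0787 without). TRPM6 (ENSSSCG00025034485), a magnesium channel fused to a kinase, fell from 11.3, 9.33, 13.7 and 11.95 CPM to 0.730, 1.86, 1.19 and 1.08 in DMEM/F12 and 1.67, 1.34, 1.23 and 1.61 in incubation medium. It was 9.35-fold and 7.82-fold lower (log2 -3.23 and -2.97, SE 0.24 each), while its relative TRPM7 was not called in any comparison (-0.01, -0.20 and -0.19). TRPC1 fell from 57.8 to 24.6 and 17.01 CPM (-1.23 and -1.76, SE 0.21 each). With the replicate block TRPC1 was lower in incubation medium than in DMEM/F12 (-0.54, adjusted p = 0.0013, against 0.0884 without). The calcium-activated channel TRPM4 fell from 12.4 to 6.90 and 7.61 CPM, and TRPC6, opened by diacylglycerol, from 2.90 to 0.657 and 0.699 CPM. TRPV4 (ENSSSCG00025037309), a sensor of osmotic and mechanical stimuli known from ciliated oviduct cells, went against the other called TRP genes. It was at 2.79, 1.97, 0.935 and 2.35 CPM in fresh cells, 5.35, 6.74, 6.22 and 4.80 in DMEM/F12 and 5.13, 4.67, 7.26 and 5.64 in incubation medium (1.51 and 1.49, SE 0.27 each, adjusted p = 0.00017 and 0.000199). Of the 9 tested genes 8 were called in each medium against fresh cells, 4 in each direction, and 1 between the media (88.9%, 88.9% and 11.1%, beside 70.7%, 71.7% and 25% of all tested genes).

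Some members differed between same-numbered libraries in a way that recurred across groups, and the 8 shown were chosen after their values were seen. Replicate 4 was the highest and replicate 3 the lowest library of FXYD2 in all 3 groups. For KCNT1, a sodium-activated potassium channel, replicate 4 was highest in all 3 groups, at 15.7, 7.92 and 7.52 CPM, while the other libraries of these groups reached at most 7.29, 3.02 and 1.602. KCNT1 was not called in DMEM/F12 (-1.17, adjusted p = 0.116; -1.27 and 0.00128 with the replicate block; -1.87 and 0.0253 without DMEM/F12 replicate 4). In incubation medium it was called (-1.59, adjusted p = 0.0449), by -2.74 without incubation medium replicate 4 but not without fresh cell replicate 3 or 4 or incubation medium replicate 1, 2 or 3 (adjusted p 0.0618 to 0.18), nor under DESeq2 (0.0647). The ratio of incubation medium to DMEM/F12 between same-numbered libraries of AQP5 was 3.20, 1.29, 5.89 and 2.90, above 1 in 4 of 4. For AQP3 the ratio of DMEM/F12 to fresh cells was 0.632, 0.418, 0.19 and 0.671, below 1 in 4 of 4. CLIC2 and CLIC3 were highest in replicates 1 and 4 in both spheroid groups.

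**Figure D5:**
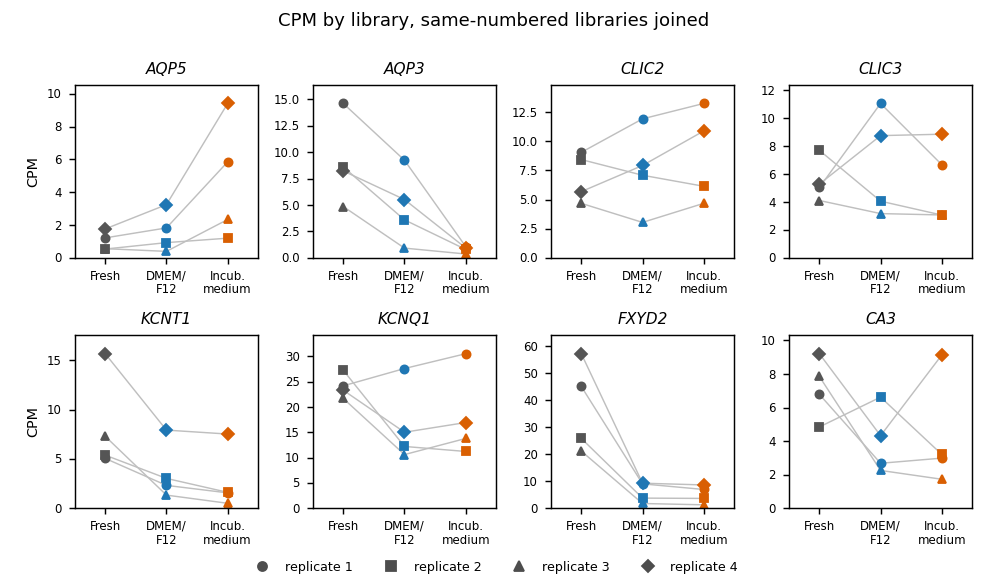
CPM in each library on a linear axis from 0, by group, with lines that join libraries of the same replicate number, for 8 genes. Replicate 4 (diamonds) lies highest in all 3 groups for FXYD2, KCNT1 and AQP5, and replicate 1 (circles) for AQP3.

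The 65 genes below the filter were at or near the detection limit at this depth. Of them 8 were at 0 in all 12 libraries, among them the water channels AQP2 and AQP6 and the inward rectifiers KCNJ1 and KCNJ9, where 0 counts allow up to 3, or 0.348 to 0.588 CPM by library. The other 57 had at most 28 counts in a library. That maximum was KCNIP4 in fresh cell replicate 2. KCNN2, a small-conductance channel, summed to 43, 14 and 11 counts over the 4 libraries of fresh cells, DMEM/F12 and incubation medium, and AQP1, the water channel of endothelium and red cells, to 29, 15 and 10. CA1, an enzyme of red cells, summed to 0, 25 and 7 counts.

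Genes that work with these channels were followed in 3 lists. Of 29 cotransporters and exchangers of fluid secretion 17 had rows and 11 were tested. Against fresh cells 7 were called higher and 3 lower in DMEM/F12 (median log2 fold change 0.45), 6 higher and 4 lower in incubation medium (0.38), beside medians of -0.01 over all tested genes, and 0 higher and 3 lower between the media. Called genes with a mean of at least 20 CPM over the groups compared were named, up to 3 with the largest change in each list and comparison. The anion exchanger SLC4A2 rose from 49.1 to 77.6 and 83.3 CPM (0.66 and 0.76), and the sodium-bicarbonate cotransporter SLC4A4 from 34.4 to 52.1 CPM in DMEM/F12 (0.60, adjusted p = 0.000424), with 40.0 CPM in incubation medium (0.22, adjusted p = 0.117; -0.38 and 0.0271 between the media). The potassium-chloride cotransporter SLC12A7 was lower in incubation medium than in DMEM/F12 (-0.32, adjusted p = 0.0226), and the Golgi sodium-proton exchanger SLC9A8 rose in both media (0.45 and 0.38). Those called lower in both media, below that level and named after their values were seen, changed more: the anion exchanger SLC4A3 fell from 10.8 to 4.12 and 1.75 CPM (-1.39 and -2.62), the sodium-calcium exchanger SLC8A1 from 5.79 to 0.563 and 0.453 CPM and the anion exchanger SLC26A4 from 2.75 to 0.21 and 0.193 CPM. Of 42 regulators 33 had rows and 29 were tested, with 14 called higher and 10 lower in DMEM/F12, 10 higher and 11 lower in incubation medium, and 2 higher and 8 lower between the media. Their median log2 fold changes were 0.27, 0.09 and -0.17, beside -0.01, -0.01 and 0 over all tested genes, of which 70.7%, 71.7% and 25% were called. ST14, a membrane protease that acts upstream of sodium channel cleavage, rose from 88.8 to 353 and 259 CPM (1.99 and 1.55). The mineralocorticoid receptor NR3C2 fell from 39.1 to 8.55 and 12.2 CPM (-2.19 and -1.68), the cAMP phosphodiesterase PDE4D from 47.3 to 13.5 and 10.7 CPM (-1.80 and -2.14) and the kinase anchor AKAP13 from 120 to 54.2 and 36.2 CPM (-1.15 and -1.73). SGK1, a kinase that raises sodium channel activity, fell from 148 to 82.1 and 29.3 CPM and was lower in incubation medium than in DMEM/F12 (-1.49, adjusted p = 0.000109), as was the adenylyl cyclase ADCY7 (-0.55, adjusted p = 0.00308). HSD11B2, which inactivates cortisol beside the mineralocorticoid receptor, and the kinase WNK4 were singled out after their values were seen. HSD11B2 fell from 19.6 to 4.17 and 6.02 CPM (-2.23 and -1.70), and WNK4 from 17 to 4.41 and 0.64 CPM (-1.95 and -4.70; -2.75 between the media, adjusted p = 0.000351). Of 14 other chloride channel genes 9 had rows and 7 were tested, with 3 called higher and 1 lower in DMEM/F12 and 3 higher and 2 lower in incubation medium (medians 0.34 and 0.31). TTYH3 rose from 50.5 to 198 and 143 CPM (1.97 and 1.5). LRRC8A, the essential subunit of the volume-regulated anion channel, rose from 22.1 to 69.8 and 51.8 CPM (1.66 and 1.23). LRRC8E fell from 32.7 to 24.6 and 20.4 CPM (-0.41 and -0.68). Between the media 0 of the 7 were called higher in incubation medium and 4 lower, TTYH3 and LRRC8A among them (-0.47 and -0.43), beside 12.7% and 12.3% of all tested genes.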

How the data were processed

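Poly(A) RNA was primed with oligo-dT and tagmented, per the labels' protocols, and the submitters' processing notes name fastp 0.24.0, STAR 2.7.11, SAMtools 1.22.1, featureCounts and Subread 2.1.1. The genome build and the strand setting are not given in the sources used here. The authors deposited expected counts, in which a read shared between features gives a fraction of a count, and CPM values for 30553 rows, of which 92 spike-in rows were left out. A symbol was missing from 56.5% of gene rows, so genes of these families without one are not analysed here. No gene identifier matched the reference tables, so no sequence or coordinate is given.

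Whole counts had been assumed for the test, so each expected count was rounded. The rounded counts were tested with the edgeR quasi-likelihood test (edgeR 4.0.16, limma 3.58.1, R 4.3.3; TMM scaling, filterByExpr with a minimum count of 10) in 1 fit of all 12 libraries, with Benjamini-Hochberg adjustment over 14070 genes and a threshold of 0.05. CPM in the text were computed from these counts with TMM-scaled library sizes, so they differ slightly from the deposited CPM. DESeq2 1.42.0 was an alternative, beside other scalings and filters, thinned counts, whole counts only, a replicate block and leaving out each library. On simulated data for DMEM/F12 against fresh cells (13801 genes) the test recovered 42.9% of 1.5-fold, 79.6% of 2-fold, 94.0% of 4-fold and 100% of 8-fold changes, and 3.12% of calls were false. In that simulation 13605 genes were unchanged and all libraries were drawn independently, with no pairing by replicate number. In the data 70.7% of tested genes were called in this comparison, so the simulated shares do not give the error rate of these calls.

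Replicate numbers in the labels run from 1 to 4 in each group. Deviations from the group means correlated at 0.196 to 0.516 in 12 of 12 same-numbered pairs of libraries and at -0.318 to 0.023 in the others. The numbers were therefore taken to pair the samples. The main fit did not use this pairing, so its standard errors, adjusted p-values and calls treat the libraries as unpaired. A gene not called in the main fit can be called with the block. Blocked values are given where they change a call.

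Values in every library were given for CA12, KCNJ16, CFTR, ATP1B1, CA2, AQP5 and TRPV4, for the 2 genes of highest mean in each of 8 role groups, and in each comparison for the 6 largest rises and 6 largest falls among called genes of at least 5 CPM without overlap. This names 32 genes, 1 of which is not reported here and is left out of the figures, and others are given as part of their family. The members and all lists were chosen with earlier results of these data known.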

Additional observations from a re-analysis of the deposited data

Results flagged for a closer look

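Of 195 sets of 4 libraries (65 genes in 3 groups), 13 held a library far from the other 3. About 1 in 20 sets would be flagged if the values were independent and normally distributed. The genes share libraries and some sets rest on few counts, so the number of flags is no result. Of the 13, 5 were in DMEM/F12 replicate 3. In that library CLIC1 stood at 1410 CPM (the next at 1020), CLIC4 at 280 (201) and ATP2A2 at 191 (148), each above the others, and CLCN7 stood at 13.5 (16.8) and KCNN4 at 1.06 (1.39), each below them. CLCN3 was low in DMEM/F12 replicate 2, at 56.9 CPM.

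Among fresh cells, CA12 was high in replicate 1 at 19.5 CPM, KCNK9 was at 0.174 CPM in replicate 1 and at 0 in the others, KCNMA1 was low in replicate 4 at 0.98 CPM, and FXYD6 was low in replicate 3 at 21.3 CPM. In incubation medium, KCNT1 was high in replicate 4 at 7.52 CPM, KCNN4 was high in replicate 4 at 2.55 CPM, and KCNK9 was low in replicate 1 at 1.07 CPM.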

How the results depend on the processing

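No fold change of a called gene reversed its sign under any alternative run. With only whole counts, which left 40 of the genes tested, 29 were called in DMEM/F12 against fresh cells (11 lower), 29 in incubation medium (11 lower) and 10 between the media (5 lower); fewer genes were tested there by construction. With no filter on low counts 122 were tested and 35 were called lower in DMEM/F12. Leaving out each library in turn gave 46 to 55 calls in DMEM/F12 (24 to 27 higher, 22 to 29 lower), 45 to 53 in incubation medium (22 to 25 higher, 23 to 29 lower) and 18 to 22 between the media (8 to 9 higher, 10 to 14 lower). With the replicate number as a block 53, 54 and 25 were called (27 higher and 26 lower, 25 and 29, 9 and 16); apart from the genes given with their blocked values, the block changed no call of a tested gene. The share of all tested genes called was not counted in these alternative runs, so their counts of calls have no background and are no result about the set. Genes under about 2 CPM rest on few counts and intervals or floors cover counting error only.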
